A study of Arabidopsis thaliana with 30 samples.

Results

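H4K8ac, histone H4 acetylated at lysine 8, was profiled by ChIP-seq in wild-type (WT) Arabidopsis and in the brd1/2/13 mutant, and the 4 peak lists of that mark are described here. They are 2 lists for each genotype, out of 20 peak lists in 10 groups and 30 samples in all. The material was whole young seedlings, 14-day-old, raised on 1/2 MS medium at 22 degrees in 16 h light and 8 h dark. The labels name no alleles, so brd1/2/13 is read here only as the mutant of the 3 loci AT1G20670, AT1G76380 and AT5G55040, listed here as BRD1, BRD2 and BRD13. A whole seedling mixes many cell types, and a stronger mark and more cells that carry it cannot be told apart. The labels of the acetylation samples name an anti-GFP antibody while their titles name H4K8ac, and the titles were followed. The replicates are numbered as biological replicates, but nothing states separate sowings, so a p-value here reflects how far these lists differ among themselves, which can be a technical spread.

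Acetylation removes the positive charge of a lysine in the histone tail and is found in plants, as in other eukaryotes, near the starts of active genes. Bromodomains are protein folds that bind acetylated lysines. BRD1, BRD2 and BRD13 are bromodomain subunits of the SWI/SNF complex built on the ATPase BRAHMA (BRM), which uses ATP to move nucleosomes. The comparison therefore asks how the distribution of an acetyl mark looked in seedlings mutated in proteins of a family that reads such marks.

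A region was defined as merged peaks on chromosomes 1 to 5 that held a peak of each of the 2 replicates, with an overlap of 1 bp or more. WT had 17582 such regions and brd1/2/13 had 17713. A WT region with no peak in either mutant list was WT-only, and a mutant region with no peak in either WT list was mutant-only. There were 341 WT-only regions, 1.94% of the WT regions, and 430 mutant-only regions, 2.43% of the mutant regions. Of the WT regions, 16378 were shared, with a peak in both mutant lists, and 863 had a peak in 1 of them. Of the mutant regions, 16380 were shared and 903 had a peak in 1 WT list.

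The sequence under the summits of the strongest genotype-specific regions is shown first, because these windows carry the clearest presence or absence in the data. Each window is 101 bases of the plus strand around the better summit, taken from the TAIR10.1 RefSeq genome, and the capitals run from the summit of one replicate to that of the other. The windows are the first 2 of each class among the 10 best regions that touch no annotated UTR.

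AT5G55040 (BRD13), WT-only, coding sequence, chr5:22331492-22331592: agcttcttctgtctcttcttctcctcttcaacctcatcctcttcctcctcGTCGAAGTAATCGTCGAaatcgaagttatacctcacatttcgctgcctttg

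AT4G11790, WT-only, promoter, chr4:7089725-7089825: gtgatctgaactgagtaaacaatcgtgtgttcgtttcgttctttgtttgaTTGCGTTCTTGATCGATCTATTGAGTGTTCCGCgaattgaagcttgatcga

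FLC, mutant-only, coding sequence, chr5:3179176-3179276: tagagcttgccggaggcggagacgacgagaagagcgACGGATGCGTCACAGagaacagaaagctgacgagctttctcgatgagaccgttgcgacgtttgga

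CRF10 (nearest start), mutant-only, intergenic, chr1:25724068-25724168: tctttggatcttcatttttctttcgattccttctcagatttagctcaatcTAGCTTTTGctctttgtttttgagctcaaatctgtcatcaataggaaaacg

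The windows show how closely the replicates placed their summits: 16 bp apart at BRD13, 32 bp at AT4G11790, 14 bp at FLC and 8 bp at CRF10 by the summit columns. None of the 4 windows holds the G-box CACGTG, the site II core TGGGCC, the telo-box AAACCCTA or the repeat GAGAGAGA, searched on both strands. In 301-bp windows around the summits, the telo-box was found in 7.62% of WT-only and 4.65% of mutant-only regions. All WT and all mutant regions had 11.9% and 11.7%. Weak regions, with a fold enrichment (defined below) under 2 in both replicates, had 4.55% in WT and 4.004% in the mutant. For the WT-only and mutant-only regions among these the shares were 5.80% and 2.90%. The G-box was found in 2.35% of WT-only and 5.35% of mutant-only regions. All WT and all mutant regions had 3.16% and 3.22%, and the weak ones 4.05% and 4.605%. These shares were not tested. None of the 4 motifs contains another, and a match is only a match of letters.

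The mutated loci themselves were looked at first. At BRD13 (AT5G55040, chr5:22326940-22332078, minus strand) H4K8ac was strong in WT and had no peak in the mutant. The WT fold enrichment, the pileup of reads at the summit over the local background as the peak caller gave it, was 5.28 in replicate 1 and 5.37 in replicate 2, with summits 520 and 536 bp downstream of the gene start. The summit pileups behind these values were 167 and 168 reads. Neither mutant list had any peak within 1 kb of the gene. The region, chr5:22330994-22331816, was the best WT-only region, and every other WT-only region among the 10 best had a fold under 3 in both lists. H4K5ac, acetylation of the neighbouring lysine 5, had a WT peak there in both replicates, of fold 4.72 and 4.88, and no mutant peak overlapping it. Weak H4K5ac mutant peaks of fold 2.13 and 1.94 lay near the far end of the gene.

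At BRD2 (AT1G76380) both ends of the gene carried the mark in WT. The peak near the gene start had folds of 1.92 and 2.67 in WT and of 2.97 and 3.47 in brd1/2/13. Its 2 mutant values lay above its 2 WT values, as in 22.7% of the 16199 regions with a peak in all 4 lists. The fold difference was 0.49 on the log2 scale (SE 0.15) with an adjusted p of 0.0790 by limma, so it did not pass. Near the end of the gene, weak WT peaks of fold 1.68 and 2.13 had no mutant counterpart and made a WT-only region. At BRD1 (AT1G20670) the peak near the start had folds of 3.51 and 3.36 in WT and of 4.35 and 3.64 in the mutant, a log2 difference of 0.20 (SE 0.13, limma adjusted p = 0.576). Of the 3 loci, 1 had no mutant peak near its start and the other two had one in all 4 lists.

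The best mutant-only region was in the first part of FLC, the MADS-box repressor of flowering. Neither WT list had a peak near the start of FLC. The mutant lists had peaks there of fold 3.11 and 3.61, with 91 and 101 reads at summits 236 and 222 bp downstream of the start, in chr5:3179011-3179428. All 4 lists had a separate peak near the far end of the gene, with folds of 2.53 and 2.76 in WT and 2.81 and 2.98 in the mutant. H4K5ac was present at the start of FLC in both genotypes, with folds of 3.21 and 3.67 in WT and of 4.82 and 5.57 in brd1/2/13. The lists hold no value where there is no peak, so the WT level of H4K8ac at this place is unknown below the calling threshold.

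MAF4, a relative of FLC that also delays flowering, showed the same presence and absence at a weaker level. No WT list had a peak within 1 kb of it, and the mutant folds were 2.198 and 2.02. SVP, another flowering repressor, had WT folds of 2.04 and 2.196 and a single mutant peak of fold 1.76 in replicate 1. SOC1, which promotes flowering and stands as AGL20 in the annotation, had a peak of fold 1.89 in WT replicate 1 and peaks of 2.54 and 1.84 in the mutant. These are presence calls near the detection limit, and the flowering list as a whole was described by its counts. Of its 18 genes, 14 had a WT region and 15 a mutant region in the gene or 1 kb upstream. No member was called in the fold comparison, 2 had a mutant-only region and none had a WT-only region. Of all 27770 protein-coding and microRNA genes, 65.4% had a WT region and 65.3% a mutant region. A mutant-only region lay at 1.63% of them and a WT-only region at 1.47%. The counts of the list were not tested.

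The remaining WT-only regions of highest rank were short and weak. AT4G11790, a pleckstrin homology protein gene, had folds of 2.60 and 2.66 upstream of its start. TRFL2, a TRF-like gene, had 2.83 and 2.50. AT1G57620, which codes for a p24 family protein, had 2.73 and 2.46. WRKY47 and WRKY18, both WRKY transcription factor genes, had 2.46 and 2.26 in the coding sequence and 2.17 and 2.29 upstream of the start. AT5G03550, AT4G33150, AT1G65870 and AT1G66760 completed the first 10, with folds between 2.16 and 2.50. At 7 of these 10 places H4K5ac had a peak in both WT lists, and BRD13 was the only one of the 7 where the H4K5ac peak too was missing from both mutant lists.

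The mutant-only regions after FLC were of similar strength. The region nearest to CRF10, an ERF-type factor gene, had folds of 2.92 and 2.97 and lay outside any gene. The region nearest to XTH16, a xyloglucan endotransglucosylase/hydrolase gene whose products remodel the cell wall, had 2.90 and 2.72 with its summit at -2312 bp from the start. AT1G09390, a GDSL-like lipase gene, had 2.55 and 2.55 in the coding sequence. AT1G29980, of unknown function, had 2.55 and 2.53 in an intron. AT4G30450, AT3G29765, AT2G17540, AT2G27500 and AT5G10130 followed with folds from 2.38 to 2.79.

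As classes, the genotype-specific regions were the weak end of the mark. The median fold of WT-only regions was 1.84 in replicate 1 and 1.86 in replicate 2, against 2.99 and 2.97 over all WT regions. For mutant-only regions it was 1.90 and 1.89, against 3.001 and 3.01 over all mutant regions. The median width was 508 bp for WT-only and 494 bp for mutant-only regions, against 874 and 846 bp over all regions of the 2 genotypes. These values describe what the definition selected and were not tested. In 207 of the 341 WT-only regions and in 207 of the 430 mutant-only regions the fold was under 2 in both replicates.

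Their place in the gene differed from that of the mark as a whole. The better summit was within 500 bp of a gene start in 37.5% of WT-only and 37.0% of mutant-only regions, against 66.7% and 67.2% of all regions of each genotype. Most summits lay in coding sequence, 63.6% of WT-only and 55.8% of mutant-only regions, against 64.6% of all WT and 63.4% of all mutant regions. Only 3.23% and 3.02% lay in a 5′ UTR, where all regions had 11.4% and 12.3% and regions under fold 2 in both replicates 5.21% and 7.11%. Intergenic summits, outside genes and more than 1 kb from them, made up 5.57% of WT-only and 12.6% of mutant-only regions, against 1.79% and 2.18% of all regions and 6.78% and 7.11% of regions under fold 2. Among all regions whose fold was under 2 in both replicates, the share within 500 bp of a start was 33.3% in WT. The plot of region classes sets these shares side by side.

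**Figure D1:**
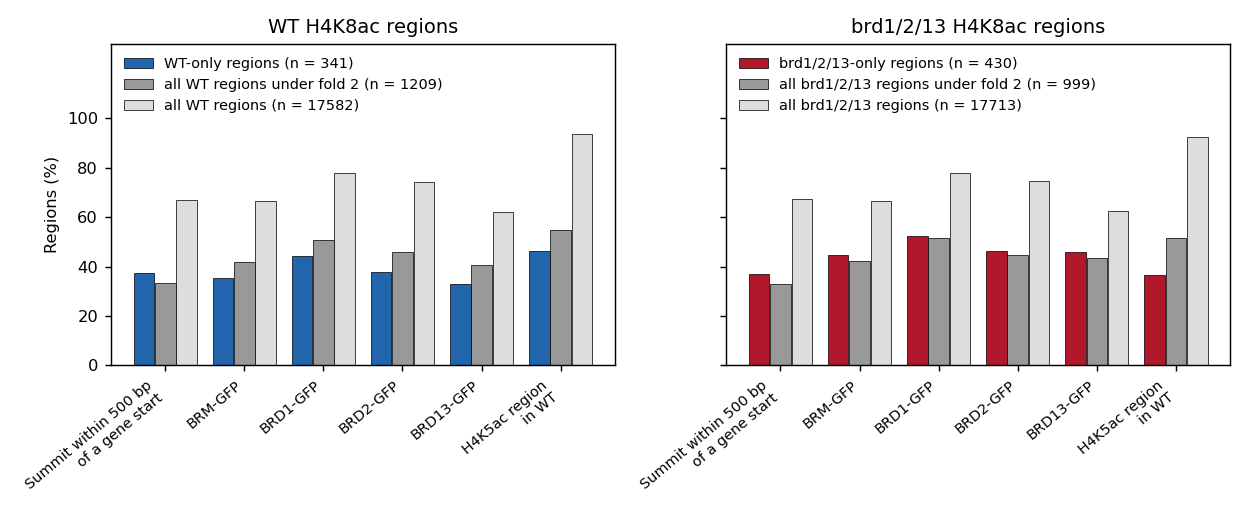
Share of H4K8ac regions (y axis, percent) with a given feature, in WT (left) and brd1/2/13 (right). Coloured bars are genotype-specific regions, dark grey bars all regions under fold 2 in both replicates and light grey bars all regions; features are a summit within 500 bp of a gene start, overlap with a region of each GFP-tagged protein, and overlap with a WT H4K5ac region. Coloured bars include regions of every fold. In both panels every coloured bar stands below its light grey bar. In WT every coloured bar except that of the summit also stands below its dark grey bar. In brd1/2/13 only that of H4K5ac does, at 36.7% against 51.7%.

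Occupancy by the remodelling proteins was lower in the specific classes than over all regions. Among regions under fold 2 in both replicates, it was also lower in WT-only and in mutant-only regions than over all such regions. The GFP-tagged proteins were profiled in other seedlings of the same age, and the series' design text places BRM in a brm-1 and, separately, a brd1/2/13 background. BRM-GFP regions, built the same way from 2 lists, overlapped 35.5% of WT-only and 44.7% of mutant-only regions, against 66.6% and 66.7% of all regions. BRD1-GFP, BRD2-GFP and BRD13-GFP overlapped 44.3%, 37.8% and 32.8% of WT-only regions. The same proteins overlapped 52.3%, 46.3% and 45.8% of mutant-only regions. No BRD protein was found at 51.3% of WT-only and 44.7% of mutant-only regions, against 19.1% and 18.9% of all regions. Regions under fold 2 in both replicates had BRM-GFP at 42.0% in WT and 42.3% in the mutant. In WT such regions had BRD1-GFP, BRD2-GFP and BRD13-GFP at 50.5%, 45.7% and 40.4%, and in the mutant at 51.6%, 44.8% and 43.5%. How far strength and width account for the lower occupancy was not tested.

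H4K5ac was also scarcer there. A WT H4K5ac region overlapped 46.3% of WT-only and 36.7% of mutant-only H4K8ac regions, against 93.5% of all WT and 92.5% of all mutant regions. A mutant H4K5ac region overlapped 51.9% and 49.5%, against 94.5% and 94.0%. Of regions under fold 2 in both replicates, 54.9% in WT and 51.7% in the mutant overlapped a WT H4K5ac region. For the WT-only and mutant-only regions among these the shares were 35.7% and 29.5%. Of the WT-only regions, 2 overlapped a WT H4K5ac region that had no mutant H4K5ac peak, and 12 overlapped a mutant H4K5ac region with no WT H4K5ac peak. Of the mutant-only regions, 29 overlapped a mutant H4K5ac region with no WT H4K5ac peak, and 4 the reverse. In 107 WT-only and 120 mutant-only regions no H4K5ac list of either genotype had a peak.

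The number of genotype-specific regions has to be read against the replicates. Of the peaks of WT replicate 1, 8.98% had no peak of WT replicate 2, and 9.45% and 9.62% had no peak of mutant replicates 1 and 2. Of the peaks of WT replicate 2, 9.61% were missing from WT replicate 1 and 10.04% and 10.07% from the mutant lists. For mutant replicate 1 the shares were 9.99% in the other mutant list and 10.96% and 10.93% in the WT lists. For mutant replicate 2 they were 9.75% in the other mutant list and 10.8% and 10.6% in the WT lists. Every list therefore lost slightly more peaks to the other genotype than to its own replicate, and the difference between genotypes was small beside the difference between replicates.

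The Jaccard index, the shared over the joint covered length of a pair of lists, gave the same picture: 0.724 within WT, 0.710 within the mutant and 0.698 to 0.704 between genotypes. The exact test over the 3 ways to split 4 lists into pairs gave p = 0.3333, the smallest it allows.

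By gene, a WT region lay in the body or within 1 kb upstream of 18161 of 27770 protein-coding and microRNA genes (65.4%), and a mutant region at 18142 (65.3%), with 17357 genes in both sets. A WT-only region lay at 407 genes, 1.47% of all genes, and a mutant-only region at 453, 1.63%. Counts in gene lists are read against these shares. All 35 listed cytosolic ribosomal protein genes and all 19 histone acetyltransferase genes and subunits carried a region in both genotypes. The mark was rare on seed maturation genes, 3 of 13 in either genotype, and on floral organ identity and meristem genes, 1 of 17 in either genotype. These lists were chosen with earlier results of these data known.

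Members of the developmental lists that changed class had weak peaks. In the vegetative phase change list of 24 genes, MIR156d, a precursor of the microRNA that holds plants in the juvenile phase, had WT folds of 1.91 and 2.00 upstream of its start and no mutant peak within 1 kb. SPL15, a target of that microRNA, had mutant folds of 2.07 and 1.87 near its start and no WT peak there. SPL11, another SPL gene, had mutant-only peaks of 2.03 and 1.98 upstream of its start. Thus 1 gene of this list had a WT-only region and 2 had a mutant-only region.

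Among floral genes, PI, a MADS-box gene of petal and stamen identity, had WT folds of 2.00 and 1.78 and no mutant peak, and SEP4, a SEPALLATA gene, had mutant folds of 1.76 and 1.56 and no WT peak. Of the photosynthesis genes, LHCB3 had WT-only peaks of 1.68 and 2.23 upstream of its start, and PSBO1 had mutant-only peaks of 2.06 and 2.40 near its start. HSFA2, a heat shock factor gene, had mutant-only peaks near its start with folds of 1.93 and 2.02, and NCED3, which codes for an enzyme of abscisic acid synthesis, upstream of its start with 2.03 and 2.05. HDA7, a histone deacetylase gene, had mutant folds of 2.07 and 2.02 and no WT peak within 1 kb. Every one of these values lay below the median fold of all regions.

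Over whole lists, the median peak width separated the genotypes and the median fold did not, while no single region passed a test of width. The median peak width was 727 and 726 bp in the WT lists and 703 and 696 bp in the mutant lists. The groups did not overlap, and the difference was -27 bp between 726.5 ± 0.707 bp and 699.5 ± 4.95 bp (SD, n = 2; exact permutation p = 0.3333, two-sided, the smallest that 2 against 2 allows). The peaks covered 16.2 and 16.4 Mb in WT and 16.0 and 15.9 Mb in brd1/2/13, although the mutant lists held more peaks, 20046 and 19981 against 19667 and 19801. The median fold did not separate the groups: it was 2.86 and 2.83 in WT and 2.85 and 2.86 in the mutant (exact permutation p = 0.667, n = 2).

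Coverage differed in the same direction. The median summit pileup was 90 and 87 reads in WT and 84 and 82 reads in the mutant, and the lowest background was 29.4 and 29.05 reads against 27.99 and 27.3 reads. The part of this depth difference in the widths was not tested. For H4K5ac the median width was 704 and 704 bp in WT against 697 and 701 bp in the mutant, and the covered length went the other way, 15.5 and 15.5 Mb against 16.0 and 16.1 Mb.

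**Figure D2:**
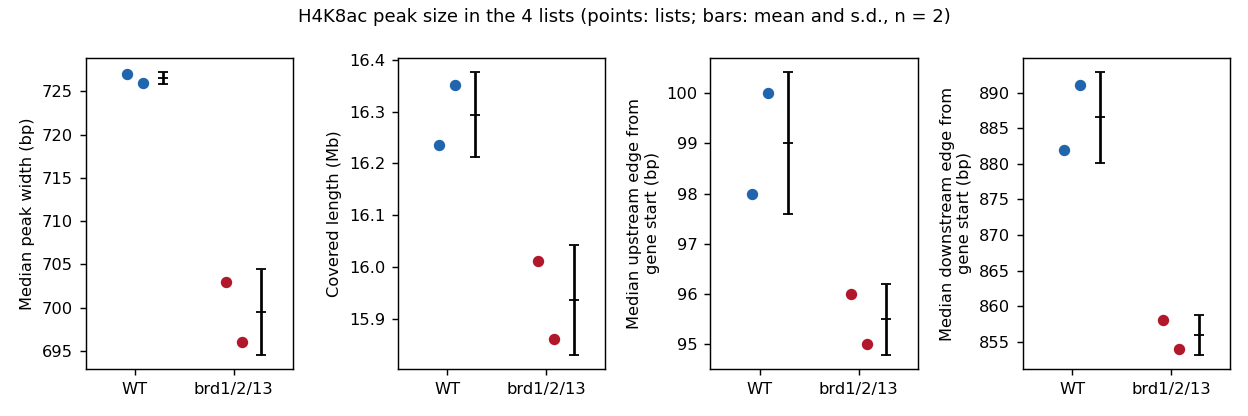
Median peak width, covered length and median distance of the upstream and downstream peak edges from the gene start (y axes, bp or Mb, not starting at 0) in the WT and brd1/2/13 H4K8ac lists; points are lists and bars the mean and SD of 2. The mutant lists lie below the WT lists in every panel, at 703 and 696 bp against 727 and 726 bp for the width.

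The shorter peaks ended earlier inside the gene. In 13028 regions with 1 peak in each list and a gene start within 1 kb, the median downstream edge lay 882 and 891 bp after the start in WT and 858 and 854 bp in the mutant, a difference of -30.5 bp. The median upstream edge lay 98 and 100 bp after the start in WT and 96 and 95 bp in the mutant. The share of protein-coding genes covered by a peak was highest 400 bp after the start in all 4 lists, at 56.3% and 56.5% in WT and 56.4% and 56.7% in the mutant. At 100 bp it was 29.6% and 29.5% in WT against 30.6% and 30.9% in the mutant, a difference that was not tested. At 1000 bp it was 24.7% and 25.3% in WT against 23.1% and 22.7%, and at 1500 bp 11.8% and 12.0% against 10.7% and 10.7%. At 500 bp upstream the groups overlapped, with 13.8% and 13.8% against 14.1% and 13.6%. The differences of both edges and of the shares at 1000 and 1500 bp exceeded the spread of the replicates. Each of these had the exact permutation p of 0.3333 that 2 lists against 2 allow at best.

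**Figure D3:**
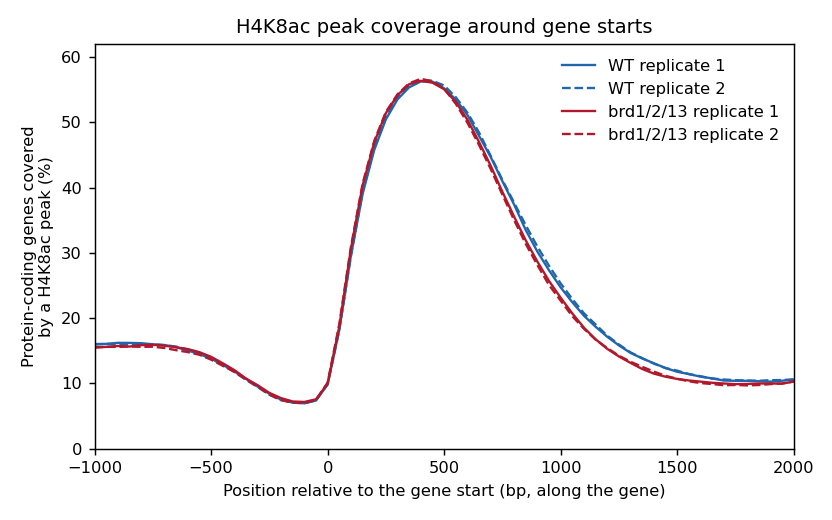
Share of protein-coding genes covered by an H4K8ac peak (y axis, percent) by position from the gene start (x axis, bp along the gene) in each of the 4 lists. Between the start and the maximum near 400 bp the mutant curves lie slightly above the WT curves, with 30.6% and 30.9% against 29.6% and 29.5% at 100 bp. Beyond the maximum they fall below the WT curves, with 23.1% and 22.7% against 24.7% and 25.3% at 1000 bp.

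Summits shifted little. Of all summits, 63.5% and 63.6% in WT and 63.9% and 64.0% in the mutant lay within 500 bp of a gene start. Summits in a 5′ UTR made up 10.6% and 10.7% in WT and 11.4% and 11.4% in the mutant, and summits in introns 16.1% and 15.7% against 15.3% and 15.2%. The median summit stood 375 and 376 bp after the gene start in WT and 364 and 367 bp in the mutant. Within a region the median absolute shift was 51 bp between the WT lists, 51 bp between the mutant lists and 51 to 52 bp between genotypes.

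Single regions were compared over the 16199 regions with a peak in all 4 lists, with limma on the log2 fold centred on the median of each list. The fold was higher in the mutant in 89 regions (0.549%) and lower in 55 (0.34%), together 0.889% of those tested at an adjusted p under 0.05. At an unadjusted p under 0.05 it was higher in 1056 and lower in 931. Leaving out any 1 list left 12 to 31 regions higher and 2 to 29 lower, and of the 144 regions called, only ABCC9 passed in all 4 such fits. limma estimated an infinite prior here, and with 4 prior degrees of freedom, a setting chosen after seeing the data, 0 regions were called. The median fold went from 2.56 to 3.87 in the regions called higher and from 4.30 to 3.03 in those called lower. BRM-GFP overlapped 70 of the former (78.7%) and 44 of the latter, against 69.0% of all regions tested.

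**Figure D4:**
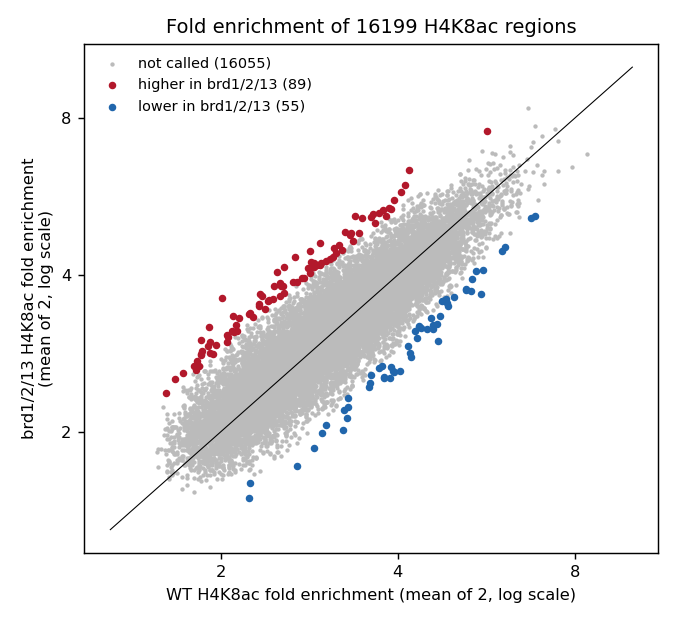
Mean H4K8ac fold enrichment of 16199 regions in brd1/2/13 (y axis, log scale) against WT (x axis, log scale), each the mean of 2 lists; the line marks equal values. Red points are the 89 regions called higher and blue points the 55 called lower by limma.

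The region with the smallest p was nearest to ABCC9 (summit at -2716 bp from the start), a multidrug resistance-associated transporter gene. Its fold was 2.08 and 1.94 in WT and 3.79 and 3.43 in the mutant, a log2 difference of 0.83 (SE 0.15, limma adjusted p = 0.000383). The fold also rose at AT4G25390, a protein kinase gene, from 3.95 and 4.41 to 5.66 and 7.04. It rose at AT3G60910, a methyltransferase family gene, from 2.62 and 2.74 to 3.90 and 4.77. AT5G02530, an RNA-binding protein gene, went from 3.07 and 3.70 to 4.93 and 5.45. AT5G46295, AT2G04495, AT5G23710 and SCN1 were the others of the first 8. Ranking by p on these folds favours regions whose values lie apart between genotypes, as they did in all 89 called higher. Over all 16199 regions both mutant values lay above both WT values in 22.7% and below both in 19.0%.

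Among regions called lower, AT1G66345, a pentatricopeptide repeat gene, had folds of 4.66 and 4.71 in WT and 2.76 and 3.21 in the mutant, a log2 difference of -0.67 (SE 0.13, limma adjusted p = 0.00196). AT3G51580, of unknown function, went from 5.49 and 5.59 to 4.02 and 3.33. CPK21, a calcium-dependent protein kinase gene, went from 3.94 and 4.13 to 2.58 and 2.66. NSF, an AAA-type ATPase gene, went from 3.78 and 4.09 to 2.58 and 2.63. AT1G56300, AT4G36960, ISA3 and UBP27 completed the first 8. Of the genes in the lists of named genes, ACT2, an actin gene, was called higher upstream of its start (1.98 and 1.71 against 2.38 and 2.97, limma adjusted p = 0.0492). AT5G55210, listed here as the SWI/SNF subunit gene BCL7B, was called lower (4.34 and 4.36 against 2.87 and 3.50, limma adjusted p = 0.0467). Gene families were only counted. Called higher were 2 of 93 regions at cytochrome P450, 1 of 36 at NAC, 1 of 148 at receptor-like kinase and 1 of 41 at microRNA genes. F-box genes (189 regions) and pentatricopeptide repeat genes (208 regions) had 1 region called in each direction. Over all regions tested 0.549% were called higher and 0.34% lower, so counts this small say nothing about a family.

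These fold differences combine the reads at the summit with the local background, and both were recovered from the deposited fold and p-value. In the regions called higher the median log2 difference, centred like the fold, was 0.27 for the summit pileup and -0.29 for the background. In those called lower it was -0.25 for the pileup and 0.28 for the background. SCN1 had 133 and 114 reads at the summit in WT and 121 and 148 in the mutant, over a background of 41.6 and 40.6 against 28.1 and 28.8 reads. At AT5G55210 the pileups were 131 and 130 against 107 and 125 reads, over 29.4 and 29.1 against 36.6 and 35.0 reads. At NSF the background was alike, 29.4 and 29.1 against 29.6 and 28.3 reads, and the pileups were 114 and 122 against 78 and 76 reads.

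Fitted on the pileup alone, an alternative chosen after seeing the data, 1 region was higher and none lower in limma, with 608 and 504 at an unadjusted p under 0.05. That region, at AT3G56210, an ARM repeat gene, had 52 and 58 reads in WT and 86 and 84 in the mutant (log2 difference 0.71, limma adjusted p = 0.0486). Across regions the local background correlated at r = 0.821 between the WT lists and 0.785 between the mutant lists, and at 0.121 to 0.129 between genotypes, over 16159 regions that share their lists. The labels hold 1 input sample for each genotype and mark, so a difference of input and of genotype cannot be told apart in the background.

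**Figure D5:**
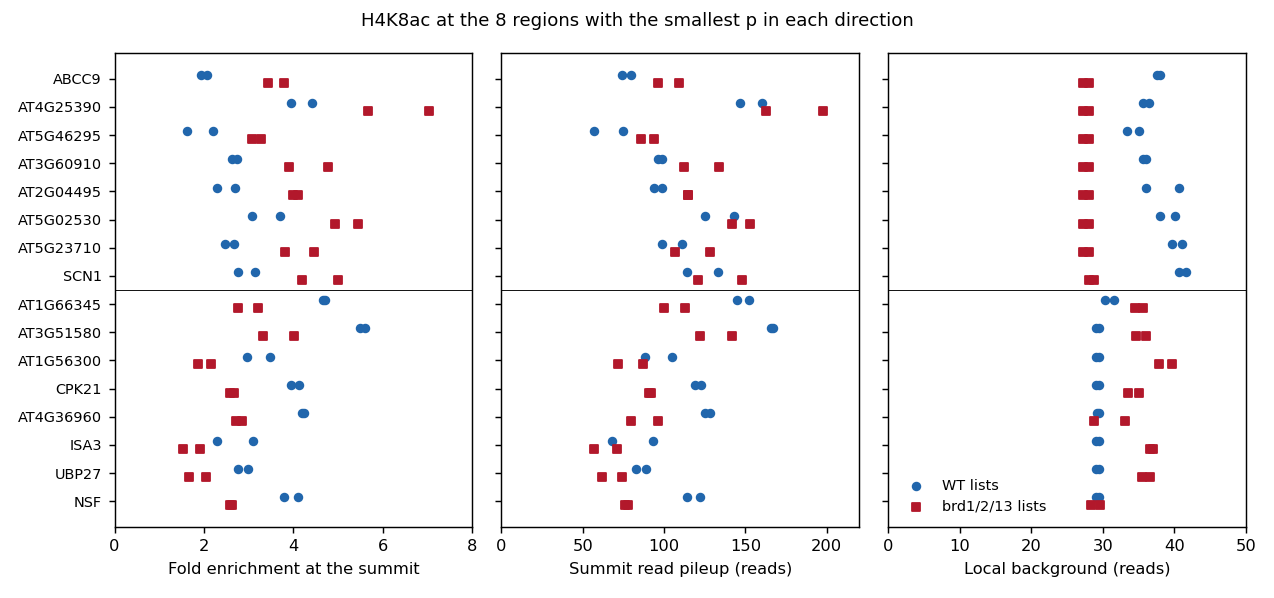
Fold enrichment, summit read pileup and local background (x axes, fold or reads) of the 8 regions with the smallest p called higher (above the line) and lower (below it); circles are WT lists and squares brd1/2/13 lists. The rows were picked by p on these folds, so that the folds of the genotypes lie apart in every row is no separate result. Over all 16199 regions they lie apart in 22.7% (mutant higher) and 19.0% (mutant lower). Pileups overlap in rows such as SCN1, and the background differs in most rows but not at NSF.

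No single region passed for width: 0% were called in either direction, with 431 wider and 790 narrower at an unadjusted p under 0.05 by limma. The smallest adjusted p was 0.546. DHS1, which codes for the first enzyme of aromatic amino acid synthesis, had the smallest p among narrower regions, with 1201 and 1276 bp in WT and 426 and 397 bp in the mutant. TIP2, a tonoplast intrinsic protein gene, had 889 and 841 bp against 294 and 316 bp. SPL2, an SPL gene, had 1050 and 1033 bp against 379 and 310 bp. In the other direction, AT1G77640 had 775 and 747 bp against 1900 and 1885 bp, and EPF2, a gene for a peptide that limits stomatal number, had 468 and 468 bp against 1186 and 1191 bp.

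The summit was called further downstream in 17 regions (0.105%) and further upstream in 15 (0.0926%), together 0.198%. The called shifts ran from 561 to 2954 bp, and 21 of the 32 regions held more than 1 peak in a list, against 8.68% of all regions tested. At AT4G08850, a receptor-like kinase gene, the best summit stood 727 and 737 bp after the start in WT and 2883 and 2942 bp in the mutant (limma adjusted p = 0.00662). At WRKY46, a WRKY factor gene, it stood at 832 and 911 bp in WT and at -2071 and -2094 bp in the mutant (limma adjusted p = 0.00658). EXGT-A3, an endoxyloglucan transferase gene, had summits at 400 and 375 bp against 1693 and 1667 bp. AT4G08850, WRKY46 and EXGT-A3 each held more than 1 peak in some of the lists. Whether a summit moved there or the best summit belonged to another peak was not tested. With the replicate number as a block 0 of the summit calls were left in either direction. The same held among regions with 1 peak in each list and in every fit that left out a list.

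The median genotype difference in fold was close to 0 in regions with and without the remodelling proteins, although occupied regions were stronger in both genotypes. The difference was taken after centring each list on its median, which places it near 0 over all regions in advance. Regions with BRM-GFP made up 69.0% of them, so their median had little room to differ. The folds given next are not centred. At 11182 regions with BRM-GFP the median fold was 3.15 and 3.13 in WT and 3.17 and 3.18 in the mutant. At 2674 regions with no BRD protein it was 2.86 and 2.86 against 2.90 and 2.90. The median width was 874 and 880 bp against 848 and 841 bp with BRM-GFP, and 656 and 654 bp against 641 and 636 bp without a BRD protein, so peaks were shorter in the mutant in both classes. BRM-GFP regions that kept no peak of BRM-GFP in brd1/2/13, 5572 in number, had widths of 817 and 825 bp against 790 and 779 bp. Those with a peak in both lists, 3892 in number, had 976 and 982 bp against 950 and 950 bp.

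The genotype difference of H4K8ac was compared with that of H4K5ac in 15013 regions with a peak in all 8 lists. The difference of H4K8ac was higher than that of H4K5ac in 72 regions (0.48%) and lower in 63 (0.42%), together 0.899%, by the interaction term in limma. The split depended on the scaling, with 35 higher and 121 lower without centring and 16 and 7 with quantile normalization. Of 90 regions with H4K8ac called higher in this fit, 6 were called higher and 1 lower for H4K5ac, against 202 and 180 of all regions. Of 55 called lower, 0 were called higher and 1 was called lower for H4K5ac, and their median H4K5ac difference was -0.02 on the log2 scale. Across regions, Pearson's r between the differences was 0.104, a description over regions that share their lists.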

How the data were processed

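Peak lists of 2 WT and 2 brd1/2/13 H4K8ac samples were used, with the H4K5ac and GFP-tag lists for overlap. Per the submitters' processing notes, TAIR10 was the build, and deepTools, MACS2 2.1.1 and Bowtie were among the tools. The version of Bowtie and the use of the inputs are not given in the sources used here. The deposited columns hold, per peak, a score, a fold enrichment, and −log10 p and q values, as the authors' caller wrote them, called per sample. Genes came from the TAIR10.1 RefSeq annotation. Summit pileups and local backgrounds were solved from fold and p. The numbers of mapped reads are unknown.

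Tests used R 4.3.3 with limma 3.58.1 (log2 fold centred on each list's median; trend, robust; Benjamini-Hochberg, adjusted p under 0.05) and exact permutation in SciPy 1.17.1, with Python 3.11.15, NumPy 2.4.6, pandas 2.3.3 and matplotlib 3.10.9. The scripts were tested on simulated data. Named regions were the 10 best of each genotype-specific class by the worse of 2 score ranks, the 8 with the smallest p per direction in each fit, the 3 BRD loci, and genotype-specific or called members of the lists of named genes. Families matched by name were only counted. SVP, SOC1, AT3G56210 and the genes of the comparison with H4K5ac were chosen after their values were seen. Members and lists were chosen with earlier results of these data known. Same-numbered replicates did not deviate together (r = 0.0262 for fold, -0.0013 for width, 0.0158 for summit). The labels give no pairing beyond the number, and whether they shared a sowing or batch is unknown.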

Additional observations from a re-analysis of the deposited data

Results flagged for a closer look

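The genotype differences of H4K8ac and H4K5ac departed from each other in 72 and 63 regions by limma's interaction term. That of H4K8ac was higher in the 72 and lower in the 63. Of the 90 regions with H4K8ac itself called higher over the same regions and the 55 called lower, 21 and 13 were among them. The 4 regions with the smallest p in each direction were chosen after their values were seen. The H4K8ac difference minus the H4K5ac difference, on the log2 scale, was 0.98 at CRCK2, a receptor-like cytoplasmic kinase gene, 0.93 at AT5G02530, 1.07 at MGE1, a GrpE co-chaperone gene, and 1.02 at AT3G57170. It was -0.82 at AT3G61520, -0.89 at SUVH3, a histone methyltransferase family gene, -0.91 at AT3G07230 and -0.75 at AT3G61480. Of these regions, H4K8ac itself was called only at AT5G02530, MGE1 and AT3G07230. At AT3G57170 and AT3G61480 the H4K8ac differences were 0.22 and -0.16 (limma adjusted p = 0.540 and 0.638). The H4K5ac differences there were -0.80 and 0.59. At CRCK2 the H4K8ac folds were 4.05 and 4.36 in WT and 5.48 and 5.76 in the mutant, and the H4K5ac folds 5.44 and 6.15 against 3.801 and 4.42. At SUVH3 the H4K8ac folds were 2.88 and 3.16 against 2.26 and 2.305, and the H4K5ac folds 4.03 and 3.68 against 5.79 and 5.47. On summit pileups in place of folds, an alternative chosen after seeing the data, the counts were 0 and 0.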

How the results depend on the processing

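The 2 lists per genotype and the absence of values below the calling threshold limit every presence call. WT-only and mutant-only regions numbered 709 and 755 with an overlap of at least 50%, 47 and 85 with −log10 q of at least 5 in the genotype of the region, and 1189 and 1307 when absence meant no region. Leaving out a list, which drops the need for a second peak, gave 767 to 1238 and 880 to 1412, with more WT-only than mutant-only regions (1238 and 880, 1127 and 883) without WT replicate 1 or 2. With equal numbers of peaks per list they were 375 and 386. Fold calls, 89 higher and 55 lower, were 58 and 47 of the 8919 regions with a mean fold of at least 3 (0.65% and 0.527%), and 32 and 19 without trend and robust. Leaving out a list gave 12 to 31 higher and 2 to 29 lower (23 and 26 without mutant replicate 2), and 1 region called higher (ABCC9) and 0 called lower passed in all 4 of these fits. In alternatives chosen after seeing the data they were 0 and 0 with 4 prior degrees of freedom (limma estimated an infinite prior), 1 and 0 on the summit pileup, and 552 and 1525 on the local background. Summit calls were 0 and 0 with 1 peak in each list and in every fit without a list. The H4K8ac minus H4K5ac calls were 35 and 121 without centring, 16 and 7 with quantile normalization, 0 and 0 on the pileup, and 15 to 52 and 6 to 48 without a list. The replicate block gave 96 and 56 fold calls, 0 and 0 width calls, 0 and 0 summit calls, and 106 and 85 calls between marks. Leaving out a list kept the sign of the differences in covered length (-0.432 to -0.283 Mb), width (-30.5 to -23.5 bp) and share near the start (0.365 to 0.473 points). Which count of a pair was the larger thus changed with the setting. The causes were not tested.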
